A study of Mus musculus with 9 samples.

Results

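Vimentin, annexins A1 and A2, galectins 1 and 3, the S100 proteins S100a4, S100a6, S100a10 and S100a11, and Ahnak were described in blood-forming stem cells of mice with or without the transcriptional repressor Bcl11a. These 10 genes are cytoskeletal and calcium-linked genes known to go up when blood stem cells differentiate or are activated, and the set was selected on the measured values of Vim, which read lower on the arrays of homozygously deleted cells. The KO values reported here, set against WT or Het, were therefore part of the choice. All 10 were measured by a probe set of a single gene symbol, out of 22180 such genes, and all 10 passed the filter on dim genes, which kept 16636. Hematopoietic stem cells (HSCs) came from bone marrow of 6 to 8 month old mice, 3 biological replicates a genotype and 1 Affymetrix Mouse Gene 2.0 ST array a replicate. KO mice carried Bcl11a fl/fl and the Mx1-Cre transgene, Het mice Bcl11a fl/wt and Mx1-Cre, and WT mice Bcl11a fl/fl without Cre. The labels give 5 poly(I:C) doses for all of them, an interferon-inducing RNA that switches on the Mx1 promoter and with it Cre in blood cells and in other interferon-responsive tissues. WT therefore differed from both other genotypes in Cre as well as in Bcl11a, and these cannot be told apart. The gate was lineage-negative, Sca-1+, Kit+, CD48-, Flt3- and CD150+, with cells YFP+ or YFP-, and the labels do not say which YFP state went onto which array.

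Values are log2 expression after RMA, an array summary that removes background, equalises arrays and combines the probes of a set; means carry the SD over 3 arrays, and no probe set's level was compared with another's. Array medians were 3.95 to 4.15, and arrays of a genotype correlated with r from 0.862 to 0.932. The interquartile range of an array was less even. On replicates 1, 2 and 3 it was 2.83, 2.80 and 2.42 in KO, 2.53, 2.39 and 2.77 in Het and 2.22, 2.47 and 2.69 in WT cells. The median standard error of a difference between genotypes was 0.298. Transcripts that are absent by sex read up to 4.22, so values near 4 may be background. By Xist, 1 of 3 KO, 1 of 3 Het and 2 of 3 WT mice were female. The Bcl11a transcript read 7.82, 7.90 and 8.66 on KO replicates 1, 2 and 3, against 8.34, 8.37 and 8.89 in Het cells and 8.73, 8.81 and 8.38 in WT cells, so KO replicate 3 lay inside the WT range; the sources used here do not say whether its probes cover the deleted part. Kit, the stem cell factor receptor used in the gate, read 9.27 to 10.01 in KO, 9.19 to 9.60 in Het and 8.75 to 9.47 in WT cells. Slamf1, which encodes the CD150 of the gate, read 6.43 to 7.94 in KO and 6.61 to 7.34 in Het cells but 4.64, 4.67 and 6.71 on WT replicates 1, 2 and 3, so 2 WT arrays read low for a defining marker. Flt3, for which the gate was negative, read 3.55 to 4.03 in KO and 3.93 to 4.10 in Het cells, against 4.99, 3.99 and 5.36 on WT replicates 1, 2 and 3. The stem cell factors Mecom and Hlf were lowest on WT replicate 1, at 5.65 and 6.31. WT replicates 1 and 2 thus stood apart from the KO and Het arrays in Slamf1, and WT replicates 1 and 3 in Flt3. WT replicate 3 lay inside their range in Slamf1, as did WT replicate 2 in Flt3. Cd48, for which the gate was also negative, overlapped among genotypes. It read 3.92 to 4.71 in KO, 3.90 to 5.13 in Het and 3.63 to 4.83 in WT cells. The mean of 11 stem cell markers lay between 7.51 and 8.16 in KO, between 7.39 and 7.74 in Het and between 5.91 and 7.13 in WT cells.

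Vimentin is the intermediate filament protein of most blood and connective tissue cells. Annexins bind membrane phospholipids when calcium rises, and S100 proteins are small paired EF-hand proteins, some of which bind annexins. In many cell types annexin A2 and S100a10 form a complex at the inner face of the plasma membrane, to which the giant scaffold protein AHNAK can attach. Galectins are lectins that bind beta-galactosides. S100a10 differs from its relatives in that its EF hands no longer bind calcium.

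The start regions of 8 of the 10 genes were in the RefSeq table of GRCm38.p6, each with 250 bases before the gene's start and 50 bases after it. Those of Lgals1 and S100a10 were not used here. The first line shows Vim, on whose values the set was selected, and the others 3 members whose KO and WT arrays overlapped. They are given for Vim (chr2:13574061-13574360, plus strand), Anxa1 (chr19:20390622-20390921, minus strand), Anxa2 (chr9:69453433-69453732, plus strand) and S100a11 (chr3:93520246-93520545, plus strand), 5′ to 3′ along the gene, with matches to 5 motifs in capitals.
Vim: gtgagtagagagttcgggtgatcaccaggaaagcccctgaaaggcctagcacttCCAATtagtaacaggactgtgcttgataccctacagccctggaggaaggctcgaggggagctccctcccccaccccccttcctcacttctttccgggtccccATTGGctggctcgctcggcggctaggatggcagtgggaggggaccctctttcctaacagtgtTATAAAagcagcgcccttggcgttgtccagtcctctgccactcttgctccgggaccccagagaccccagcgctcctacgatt
Anxa1: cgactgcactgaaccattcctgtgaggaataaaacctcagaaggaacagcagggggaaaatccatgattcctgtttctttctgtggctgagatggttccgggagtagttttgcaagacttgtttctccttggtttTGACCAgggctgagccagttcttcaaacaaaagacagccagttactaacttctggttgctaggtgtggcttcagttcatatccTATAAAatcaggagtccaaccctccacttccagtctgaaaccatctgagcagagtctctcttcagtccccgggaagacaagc
Anxa2: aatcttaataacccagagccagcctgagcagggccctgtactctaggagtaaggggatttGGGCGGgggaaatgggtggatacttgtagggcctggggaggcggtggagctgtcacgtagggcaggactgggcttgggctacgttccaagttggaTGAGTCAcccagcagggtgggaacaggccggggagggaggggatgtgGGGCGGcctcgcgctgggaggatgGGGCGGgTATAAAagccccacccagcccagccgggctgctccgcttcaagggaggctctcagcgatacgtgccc
S100a11: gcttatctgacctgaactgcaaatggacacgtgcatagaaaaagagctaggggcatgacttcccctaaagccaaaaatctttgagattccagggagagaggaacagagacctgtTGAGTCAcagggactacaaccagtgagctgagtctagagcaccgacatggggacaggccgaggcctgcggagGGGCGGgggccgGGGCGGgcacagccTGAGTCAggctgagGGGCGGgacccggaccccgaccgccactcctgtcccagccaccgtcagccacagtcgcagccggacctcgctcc
Each motif was searched on both strands. The TATA box was searched as TATAAA and was in 4 of the 8 windows (Vim, Anxa1, Anxa2, S100a4) and in 13.6% of all 32851 windows of the table. In Vim it lay from -32 to -27 relative to the gene's start, and in Anxa1 at the same distance. The CCAAT box, searched as CCAAT, was in Vim, S100a6 and Lgals3, and in 37.4% of all windows. The AP-1 site, searched as TGANTCA, was in Anxa2 and S100a11, and in 7.81% of all windows. The GC box, searched as GGGCGG, was in Anxa2, S100a11, Lgals3 and Ahnak, and in 35.7% of all windows. The core that BCL11A is known to bind, searched as TGACCA, was in the Anxa1 window, among the 8, and in 13.6% of all windows. No match of one motif overlapped a match of another. The windows thus differ in makeup among members, with a TATA box and CCAAT letters in Vim and GC boxes in Anxa2 and S100a11. A match is a description of the letters.

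In its probe set with the higher mean, Vim read lowest in KO cells, next in Het cells and highest in WT cells. It read 7.94, 7.56 and 7.02 in KO cells, 8.52, 8.36 and 8.39 in Het cells and 8.98, 8.76 and 8.62 in WT cells. No array of one genotype overlapped another, with every KO array below every Het array and every Het array below every WT array. The means were 7.51 ± 0.462 in KO, 8.42 ± 0.085 in Het and 8.79 ± 0.181 in WT cells (SD, n = 3 each). KO minus WT was -1.28 (SE 0.262), a level 2.43-fold lower in KO cells, and KO minus Het was -0.92; as Vim was chosen for this pattern, the values are a description with no test. Het minus WT was -0.36 (SE 0.262), which did not pass limma's test (adjusted p = 0.992; 95% interval -0.95 to 0.22). That comparison shares its WT arrays with the one that picked Vim. Among 16636 genes tested, every KO array was below every WT array for 7.32%, every KO array below every Het array for 5.4% (above it for 4.42%) and every Het array below every WT array for 3.9%. The full order KO below Het below WT held for 0.114% of them, and the opposite order for 0.168%. Vim stood 57th from the lowest KO minus WT difference. KO minus WT was -1.18, -1.29 and -1.36 without WT replicate 1, 2 and 3 in turn, and -1.04 without KO replicate 3.

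**Figure D1:**
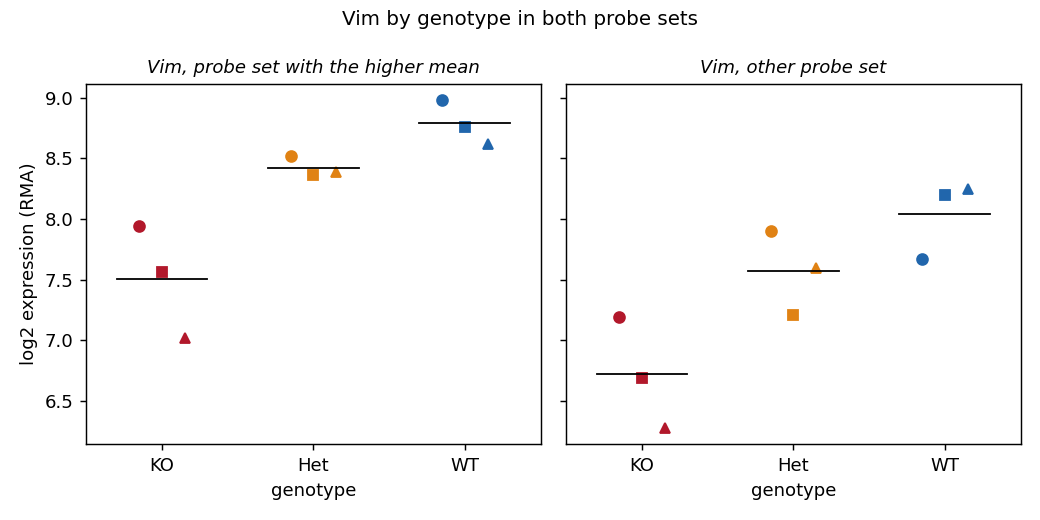
Vim in log2 expression by genotype, in the probe set with the higher mean (left) and in the other (right); circle, square and triangle are replicates 1, 2 and 3, and lines are group means. In both, the KO arrays lie below all Het and WT arrays; Het and WT arrays overlap on the right.

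A second Vim probe set was read after the first, so it repeats the measurement of the same RNA and adds no replicate. It read 7.19, 6.69 and 6.28 in KO cells, 7.90, 7.21 and 7.60 in Het cells and 7.67, 8.20 and 8.25 in WT cells. The KO arrays again lay below all others, and Het replicate 1 lay inside the WT range. KO minus WT was -1.32 and Het minus WT -0.47. Over the 9 arrays the 2 probe sets had a Pearson r of 0.902 and a Spearman rho of 0.883. The array with the lowest Vim, KO replicate 3, was the KO array whose Bcl11a transcript read 8.66, so the order of the KO arrays in Vim did not follow that of Bcl11a. By sex, KO minus WT for Vim was -1.78 in females (1 KO array, 2 WT arrays) and -1.01 in males (2 KO arrays, 1 WT array). Het minus WT was -0.41 in females (1 Het array, 2 WT arrays) and -0.32 in males (2 Het arrays, 1 WT array).

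**Figure D2:**
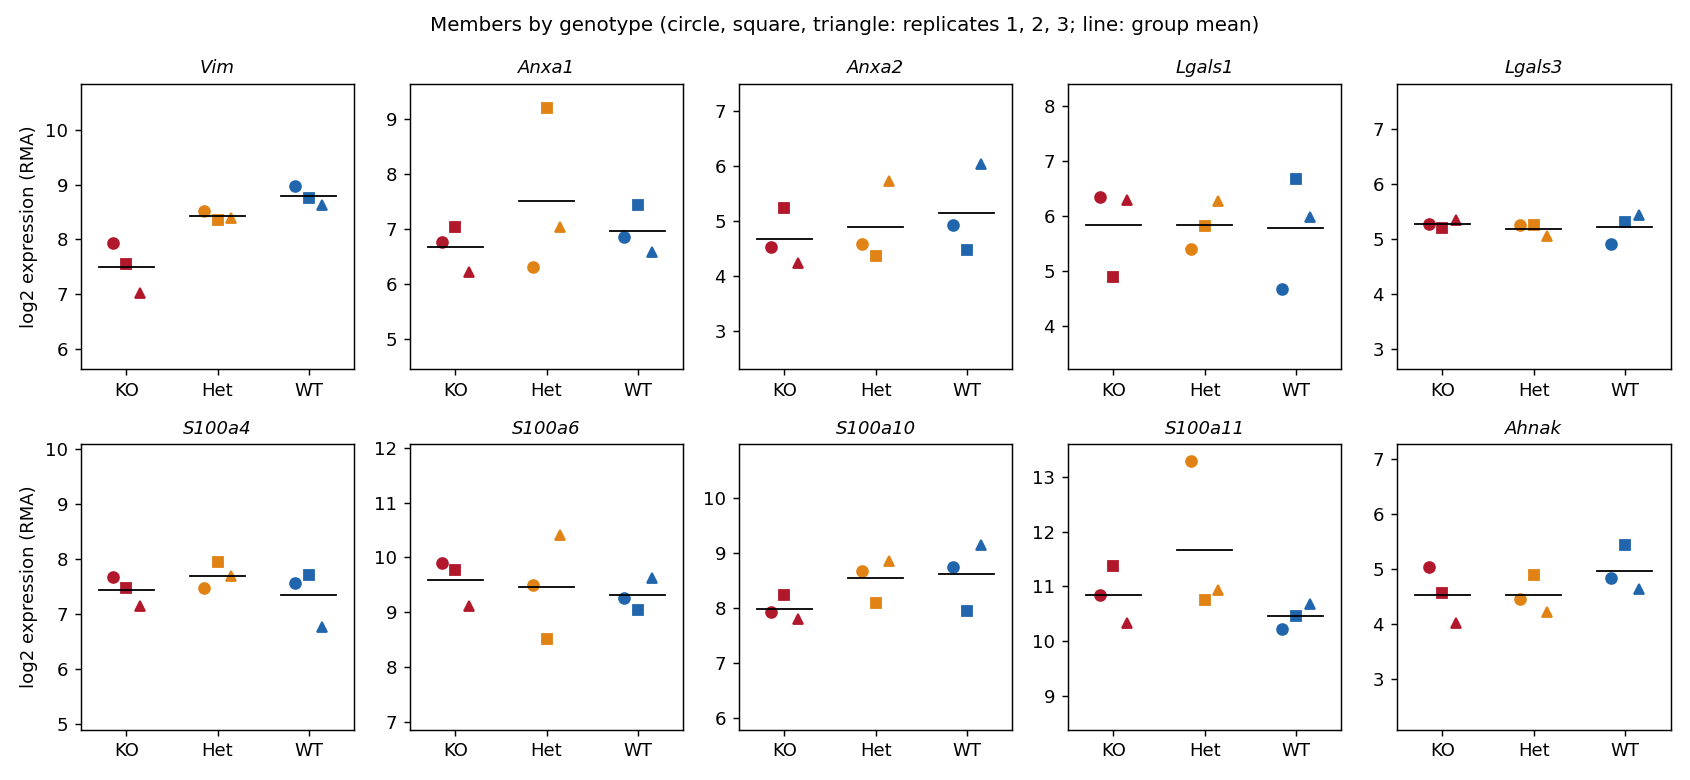
Log2 expression of each member by genotype, 1 panel a gene with the same height of scale (5.2 log2 units); circle, square and triangle are replicates 1, 2 and 3, and lines are group means. The genotypes separate without overlap in the Vim panel; Anxa1 has 1 high Het array at 9.20 and S100a11 1 at 13.29.

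The other 9 members did not share the Vim pattern. Their KO minus WT differences ran from -0.63 to 0.39 with a median of 0.06, 4 lower and 5 higher, where the median over all 16636 genes was -0.04. For none of the 9 did the KO arrays lie all below or all above the WT arrays. Of all genes tested, 7.32% lay all below and 6.51% all above, so none of 9 is near those shares. With Vim included the median was -0.11, and 5 of 10 were lower, beside 54.3% of all genes tested. In Het minus WT the 10 members had a median of 0.02, from -0.45 to 1.21, with 5 lower and 5 higher. None of the 10 was called in that comparison by limma (adjusted p from 0.992 to 0.999), and 0 of 10 had an unadjusted p under 0.05. Among all genes tested 0% were called in Het minus WT and 4.89% had such an unadjusted p. In KO minus WT 0.0421% of the genes tested were called (0.00601% lower, 0.0361% higher), 7 in all; nothing is read from this for the members, as that contrast chose them. With 1 array left out that count was between 0 (without WT replicate 1 or KO replicate 1) and 15 (without KO replicate 3). It was 24 with array weights, and 0 with each array's interquartile range as a covariate and with a replicate block. On simulated data for Het minus WT, the fit found 17.6% of genes shifted by 1 on the log2 scale and 73.2% of those shifted by 2. It thus missed most shifts of 1 there. The simulation drew noise separately for each gene and array and held shifts of 1 to 4 together. Its rates may therefore not hold for these arrays.

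**Figure D3:**
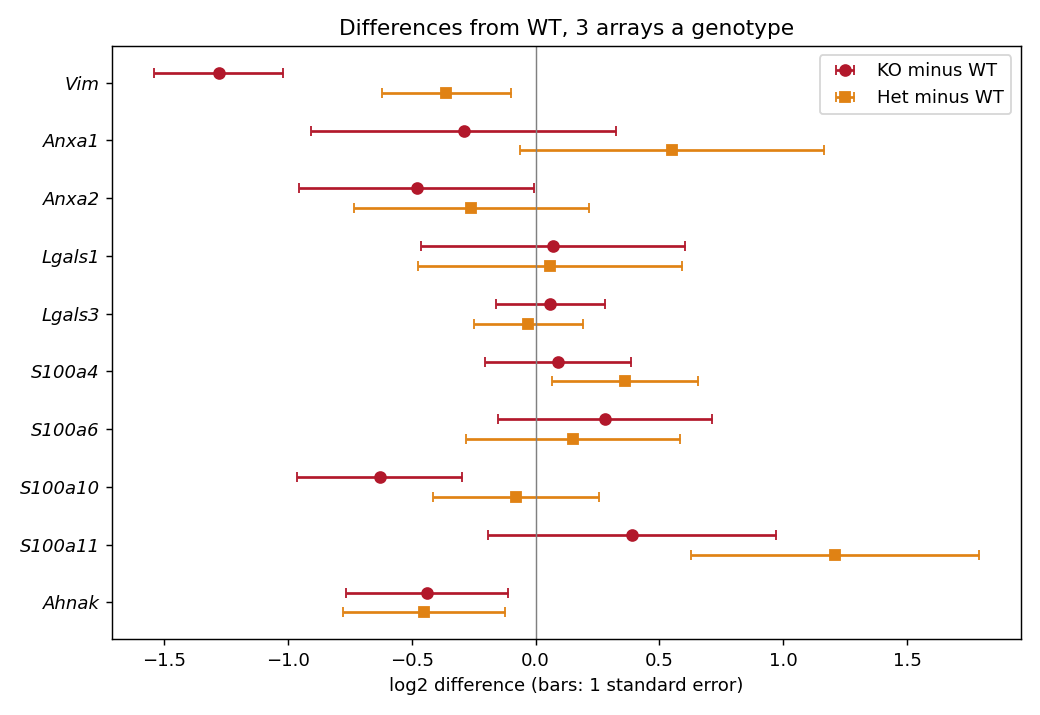
Log2 differences from WT for KO (circles) and Het (squares), with bars of 1 standard error from the fit over 9 arrays. The KO minus WT point of Vim, at -1.28, is the lowest of all; the Het minus WT point of S100a11, at 1.21, is the highest.

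Among the annexins, Anxa1, a calcium-dependent phospholipid-binding protein known for damping inflammation, read 6.76, 7.04 and 6.21 in KO cells, 6.30, 9.20 and 7.04 in Het cells and 6.85, 7.44 and 6.59 in WT cells. The genotypes overlapped, and Het replicate 2 stood above every other array. Het minus WT was 0.55 (SE 0.615), and -0.29 without that array. Its spread within genotypes, 0.938, was at the 96.5th percentile of genes tested, where the median was 0.368.

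Anxa2, a membrane-binding annexin that also serves as a plasminogen receptor, read 4.53, 5.24 and 4.23 in KO cells, 4.58, 4.36 and 5.72 in Het cells and 4.93, 4.47 and 6.04 in WT cells. Several arrays were close to the level of absent transcripts, and the genotypes overlapped (KO minus WT -0.48, SE 0.474). Its partner S100a10 read 7.93, 8.23 and 7.79 in KO cells, 8.67, 8.09 and 8.86 in Het cells and 8.75, 7.95 and 9.15 in WT cells. The KO arrays were among the lower ones, but WT replicate 2 and Het replicate 2 were inside their range. S100a10 had the next lowest KO minus WT difference after Vim, -0.63 (SE 0.334), and a Het minus WT difference of -0.08. In females (1 KO array, replicate 3, and 2 WT arrays) KO minus WT was -1.16 for S100a10 and -1.25 for Anxa2. In males (2 KO arrays, 1 WT array) it was 0.13 for S100a10 and 0.42 for Anxa2. With 1 array on a side, sex cannot be told apart from the single array.

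Anxa2 and S100a10 were high and low on the same arrays. Both were highest on WT replicate 3, next on Het replicate 3, and lowest on KO replicate 3. Over 9 arrays their Pearson r was 0.82 and Spearman rho 0.88, the highest Pearson r of the 45 pairs of members, which ran from -0.54 to 0.82. After the genotype means were removed r was 0.87, and without the 2 arrays farthest from the median of Anxa2 it was 0.54, so a good part of it rests on those arrays. Of 16635 other genes, S100a10 stood 52nd in likeness to Anxa2, and Anxa2 39th in likeness to S100a10. Ahnak, the scaffold of that complex, did not follow them, with r of -0.23 to each. It read 5.03, 4.56 and 4.01 in KO cells, 4.46, 4.89 and 4.21 in Het cells and 4.84, 5.43 and 4.64 in WT cells. The genotypes overlapped, with KO minus WT at -0.44 (SE 0.327) and Het minus WT at -0.45 (SE 0.327), and its lowest KO and Het arrays read in the range of absent transcripts. By sex, Ahnak differed by -0.73 (females) and -0.63 (males) in KO minus WT.

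**Figure D4:**
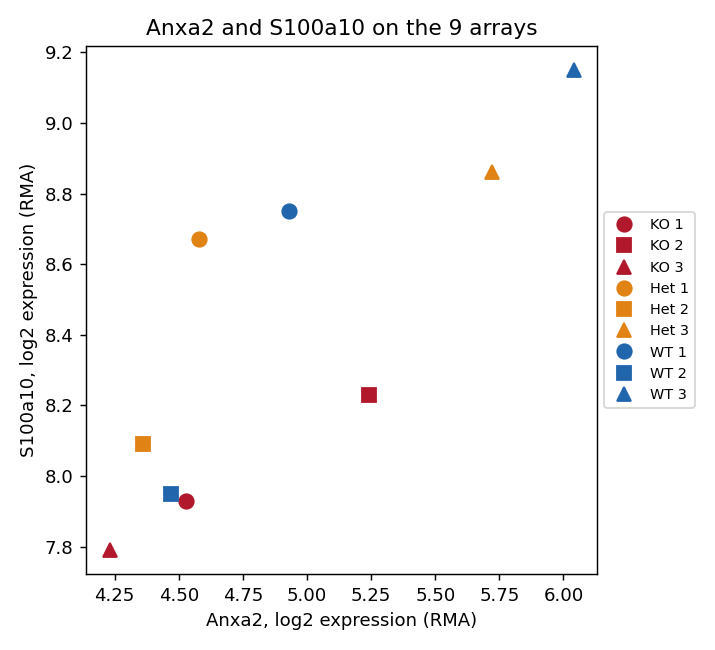
Log2 expression of S100a10 (vertical) against Anxa2 (horizontal) on the 9 arrays, coloured by genotype. The points run from KO replicate 3 at 4.23 and 7.79 to WT replicate 3 at 6.04 and 9.15.

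The S100 genes lie on chromosome 3, where S100a11 and S100a10 are neighbours and S100a4 and S100a6 are separated by S100a5. Over the 9 arrays neither pair had an r above 0.22. S100a4, a protein that binds non-muscle myosin and is known from motile cells, read 7.68, 7.48 and 7.15 in KO cells, 7.47, 7.94 and 7.69 in Het cells and 7.56, 7.71 and 6.76 in WT cells. S100a6, also named calcyclin, read 9.90, 9.77 and 9.11 in KO cells, 9.49, 8.51 and 10.40 in Het cells and 9.26, 9.05 and 9.63 in WT cells. The genotypes overlapped in both, with KO minus WT at 0.09 (SE 0.294) for S100a4 and 0.28 (SE 0.432) for S100a6, and r between the 2 genes was -0.17.

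S100a11, which binds annexin A1 and annexin A2, read 10.84, 11.37 and 10.33 in KO cells, 13.29, 10.76 and 10.93 in Het cells and 10.22, 10.46 and 10.68 in WT cells. Every Het array was above every WT array, which held for 4.51% of all genes tested, and the KO arrays overlapped both. Het minus WT was 1.21 (SE 0.581, adjusted p = 0.992 by limma, 95% interval -0.08 to 2.5). Most of it came from Het replicate 1, and without that array the difference was 0.39. r between S100a11 and its neighbour S100a10 was 0.22. After the genotype means were removed it was 0.3, and without the 2 arrays farthest from the median of S100a10 it was 0.48.

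Lgals1, a secreted galectin, read 6.35, 4.89 and 6.28 in KO cells, 5.40, 5.82 and 6.27 in Het cells and 4.66, 6.67 and 5.98 in WT cells. Each genotype spanned much of the range, and KO minus WT was 0.07 (SE 0.533). That value joined opposite ones, 0.96 in females (1 KO array, 2 WT arrays) and -1.05 in males (2 KO arrays, 1 WT array), and it ran from -0.485 without WT replicate 1 to 0.545 without KO replicate 2. Lgals3, a galectin abundant in macrophages, read 5.28, 5.20 and 5.35 in KO cells, 5.25, 5.25 and 5.06 in Het cells and 4.90, 5.30 and 5.44 in WT cells. Its 9 arrays lay within 0.54 of each other, and its spread within genotypes, 0.179, was at the 6.14th percentile of genes tested; KO minus WT was 0.06 (SE 0.22).

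Relatives of the members were counted in 7 lists with 84 tested genes outside the 10. None passed limma's test in KO minus WT or in Het minus WT; 8 and 3 of the 84 had an unadjusted p under 0.05, against 8.21% and 4.89% of all genes. Of 7 further annexins 3 were lower and 4 higher in KO cells, with a median of 0.31. Anxa9 read 6.05, 6.53 and 6.34 in KO cells and 4.30, 4.57 and 5.09 in WT cells, with no overlap (1.65, SE 0.465, adjusted p = 0.413), beside 6.51% of all genes with every KO array above every WT array. Anxa4 differed by 0.71, Anxa3 by -0.57 and Anxa8 by -0.46, all with overlap of KO and WT arrays except Anxa8. Anxa3 and Anxa8 read in the range of absent transcripts on every array. Of 5 further galectins 1 was lower and 4 were higher, from -0.33 for Lgals9 to 0.53 for Lgals8.

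Of 8 further S100 genes 5 were lower and 3 higher in KO cells, with a median of -0.30. S100a8 and S100a9, which form calprotectin, the main calcium-binding protein of neutrophils, had the lowest differences. S100a8 read 5.34, 6.74 and 2.31 in KO cells, 5.06, 8.74 and 7.07 in Het cells and 8.97, 8.59 and 8.42 in WT cells, and KO minus WT was -3.86 (SE 1.07, adjusted p = 0.41). S100a9 read 6.12, 7.22 and 6.30 in KO cells, against 9.16, 8.40 and 8.06 in WT cells (-1.99, SE 0.839, adjusted p = 0.583). S100a1, known from heart muscle, read 8.29, 8.92 and 7.81 in Het cells, against 7.57, 5.67 and 6.92 in WT cells (1.62, SE 0.605, adjusted p = 0.967).

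Of 14 other intermediate filament, lamin and linker genes 10 were lower and 4 higher in KO cells, with a median of -0.20. Krt18, a keratin, had the largest difference, at 1.28 in KO minus WT (SE 0.534, adjusted p = 0.583) and 1.04 in Het minus WT. Plec, the linker plectin, read 5.68, 5.78 and 5.79 in KO cells, against 5.29, 5.40 and 5.29 in WT cells, with no overlap (0.42, SE 0.2, adjusted p = 0.626). Of 9 further membrane repair and plasminogen genes 6 were lower and 3 higher. Plgrkt, a plasminogen receptor, read 7.61, 7.46 and 7.45 in KO cells, 7.69, 7.17 and 7.35 in Het cells and 9.18, 7.74 and 7.82 in WT cells; KO and Het arrays were all below the WT arrays (KO minus WT -0.74, adjusted p = 0.628; Het minus WT -0.84, adjusted p = 0.992). Myof, the membrane repair protein myoferlin, differed by 0.94 in KO minus WT and by 1.02 in Het minus WT.

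Actin cytoskeleton genes were split, 13 lower and 17 higher of 30 in KO cells, with a median of 0.05. Msn, the membrane-actin linker moesin, read 8.17, 8.53 and 8.28 in KO cells, against 7.38, 8.11 and 7.78 in WT cells (0.57, SE 0.251, adjusted p = 0.596). Capg, an actin capping protein, differed by 0.61 and Tpm4, a tropomyosin, by 1.44 (SE 0.869). Tubulin and microtubule genes had a median of 0.06, 4 lower and 7 higher of 11. None of the cytoskeletal genes in these 3 lists passed the test in either direction.

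In several lists of mature blood cell markers, most genes tested read lower in KO than in WT cells beside Vim. Stem cell and immediate early genes mostly read higher. Of all genes tested, 54.3% were lower in KO minus WT. Erythroid markers were lower in 4 of 8, with a median of -0.07. Megakaryocyte and platelet markers were lower in 4 of 9, with a median of 0.13. Multipotent progenitor markers were lower in 8 of 10, with a median of -0.16. Their list means were 5.27 to 5.66 in KO, 5.39 to 5.76 in Het and 5.67 to 5.91 in WT cells. Cd34, 1 of the 2 that were higher, read 9.08 to 10.09 in KO, 7.64 to 8.63 in Het and 7.79 to 8.07 in WT cells. The myeloid transcripts Lyz2, S100a8 and S100a9 read lower in every KO array than in every WT array, which held for 7.32% of all genes tested. Prtn3, a neutrophil granule protease, averaged 6.63 in KO, 6.54 in Het and 6.13 in WT cells. Lyz2, the lysozyme of myeloid cells, read 8.41, 8.80 and 7.58 in KO cells, 8.87, 8.67 and 8.70 in Het cells and 9.22, 9.20 and 9.46 in WT cells. It was lowest on KO replicate 3, as Vim and S100a8 were. The mean of 15 granulocyte markers lay between 4.13 and 4.26 in KO, between 4.25 and 5.33 in Het and between 4.52 and 5.19 in WT cells, 10 of 12 tested lower in KO minus WT. The mean of 15 monocyte and macrophage markers lay between 4.51 and 5.04 in KO, between 4.30 and 4.72 in Het and between 4.46 and 4.88 in WT cells, 8 of 15 lower. Its defining receptors Csf1r and Adgre1 averaged 4.02 and 3.77 over the 9 arrays, in the range of absent transcripts. Cd68, a lysosomal protein of macrophages, averaged 7.86 in KO, 6.30 in Het and 6.23 in WT cells. The mean of 17 stroma and endothelium markers, cells in which Vim is abundant, lay between 3.77 and 4.06 in KO cells. It lay between 3.82 and 3.93 in Het and between 3.78 and 4.02 in WT cells. These means lay in the range of absent transcripts, and 9 of 12 tested were lower in KO minus WT. Emcn, on this list, was higher. It read 6.92 to 8.11 in KO, 5.38 to 7.41 in Het and 5.39 to 6.72 in WT cells. In sorted bulk cells, fewer cells of a type and less RNA per cell cannot be told apart. Of B cell markers 7 of 7 tested were lower in KO minus WT, with list means of 4.12 to 4.24 in KO, 4.33 to 4.62 in Het and 4.58 to 4.66 in WT cells. T and NK cell markers were lower in 7 of 8, with list means of 3.75 to 4.11 in KO, 3.73 to 4.05 in Het and 4.0 to 4.07 in WT cells. The 1 that was higher, Klrb1c, read 6.04 to 7.07 in KO, 4.02 to 5.09 in Het and 3.77 to 4.95 in WT cells. Mast cell, basophil and eosinophil markers were lower in 6 of 7, with list means of 3.24 to 3.44 in KO, 3.32 to 3.49 in Het and 3.51 to 3.63 in WT cells. The list means of these cells and of T and NK cells lay under 4.22, the highest reading of absent transcripts. Granulocyte and B cell means in KO cells lay near it. Many of these values may therefore be background. Plasmacytoid dendritic cell markers were lower in 6 of 7, with list means of 5.01 to 5.30 in KO, 5.13 to 5.43 in Het and 5.24 to 5.46 in WT cells. All 11 stem cell markers tested were higher in KO minus WT, with a median of 1.24. Of 16 immediate early and stress genes, which cell handling can induce, 14 were higher, with a median of 0.67 and list means of 5.73 to 7.11 in KO, 5.86 to 6.97 in Het and 5.09 to 5.82 in WT cells. None of these lists held a gene called in KO minus WT, and their part in the Vim difference was not tested.

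**Figure D5:**
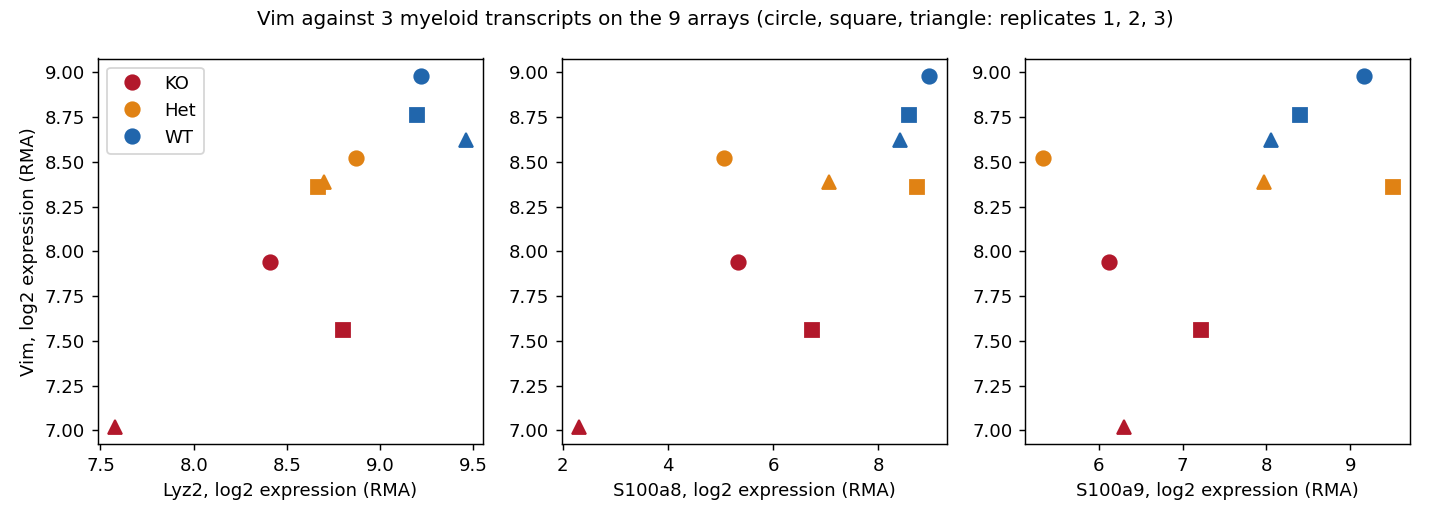
Log2 expression of Vim (vertical) against Lyz2, S100a8 and S100a9 (horizontal) on the 9 arrays, coloured by genotype. KO replicate 3 has the lowest Vim (7.02), Lyz2 (7.58) and S100a8 (2.31) of all arrays, and the WT arrays lie at the upper right.

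The genes most like Vim over the 9 arrays, among 14468 compared, were Oprm1 (r = 0.964), Twf1 (0.961), Cxcl11 (0.959), Orm1 (0.939), Sycn (0.936) and Isoc1 (0.936). Twf1, the actin monomer-binding protein twinfilin 1, averaged 6.17 in KO, 6.85 in Het and 7.23 in WT cells. Oprm1, an opioid receptor, and Sycn read at or below 3.87 on every array, in the range of absent transcripts. Cxcl11 averaged 3.60 in KO and 4.05 in Het cells, also in that range, and 4.30 in WT cells. Orm1 averaged 4.12 in KO cells, close to it. Running opposite to Vim were Nat9 (r = -0.978), Pacc1, a proton-activated chloride channel (-0.966), and Hs2st1, an enzyme of heparan sulfate (-0.942). Pacc1 averaged 6.17 in KO, 5.45 in Het and 5.22 in WT cells. As these genes were ranked out of 14468 on 9 arrays, their r values are descriptions.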

How the data were processed

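Per the labels' protocols, RNA of sorted HSCs from 9 samples went through Ribo-SPIA amplification before hybridisation; amplification of small inputs can add spread. The authors deposited a log2 value per probe set, and the submitters' processing notes name RMA; no version, setting or build was given with it. Of 41345 probe sets, 23521 had 1 gene symbol, 1814 several and 16010 were not listed in the platform annotation; symbols were updated through gene identifiers for 23328. A gene with several probe sets was read from the one with the highest mean, and genes under the 25th percentile (3.31) were left out. limma 3.58.1 in R 4.3.3 (lmFit, eBayes) fitted a mean per genotype over all 9 arrays, with 6 residual and 4.26 prior degrees of freedom; adjusted p is Benjamini-Hochberg over 16636 genes, two-sided, threshold 0.05. The fit was tested on simulated data. The number of arrays limits the precision. The members and lists were chosen with earlier results of these data known. Genes named were the members, Bcl11a and up to 4 of each related list with the largest differences. Also named were the genes most and least like Vim or the members' mean in r, and up to 3 markers per cell type list. Slamf1, Flt3, Cd48, Mecom, Hlf, Csf1r and Adgre1, defining markers, were named after their values were seen. Members have no p in comparisons with KO, since those arrays picked Vim. The alternatives were other filters, normalizations and covariates, array weights, a replicate block, averaged probe sets and leaving out each array; the second Vim probe set was added after seeing the data. Same-numbered arrays of different genotypes did not deviate together (9 correlations from -0.185 to 0.229), so replicate numbers were not taken as pairs.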

Additional observations from a re-analysis of the deposited data

How the results depend on the processing

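Vim read lower in KO cells under all 19 alternatives, but it was picked on these values, so this is a description and no test. KO minus WT lay between -1.50 and -1.04 when each array was left out in turn. It lay between -1.37 and -1.14 otherwise, with -1.32 in the second probe set. Some alternatives could not move the difference: other filters, the replicate block and leaving out a Het array each left it at -1.28. Het minus WT for Vim stayed below 0 in all 19 and called in none (adjusted p from 0.755 to 0.999). No gene was called in Het minus WT or KO minus Het under any alternative. The 7 genes called in KO minus WT became 4 when genes under the median level were left out, 3 when quantile normalized again, 3 with sex as a covariate, 24 with array weights, 0 with the interquartile range of each array as a covariate and 0 with the replicate block, and ran from 0 to 15 with an array left out (0 without KO replicate 1 or WT replicate 1, 1 without Het replicate 1 or WT replicate 2, 2 without KO replicate 2 or WT replicate 3, 3 without Het replicate 3, 15 without KO replicate 3); the cause was not tested. The members' median ran from -0.415 (without WT replicate 1) to 0.0283 (without WT replicate 2) in KO minus WT and from -0.198 (without Het replicate 3) to 0.176 (without WT replicate 3) in Het minus WT.

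Het minus WT changed sign, in members where it was never called, for Lgals1 with the interquartile range as a covariate (-0.0397) and with array weights (-0.306), for S100a6 with the interquartile range (-0.0733), and for S100a10 with array weights (0.123) and with sex as a covariate (0.0556). With an array left out it ran from -0.29 to 1.16 for Anxa1, -0.677 to 0.187 for Anxa2, -0.495 to 0.51 for Lgals1, -0.183 to 0.0867 for Lgals3, -0.313 to 0.632 for S100a6 and -0.41 to 0.19 for S100a10. KO minus WT changed sign for S100a6 with the interquartile range (-0.21), and for Lgals1 with the interquartile range (-0.146) and with array weights (-0.402). With an array left out it ran from -0.485 to 0.545 for Lgals1, -0.198 to 0.277 for S100a4 and -0.0933 to 0.177 for Lgals3. When quantile normalized again it was -0.00389 for S100a4 and -0.0167 for Lgals3, and with sex as a covariate it was -0.0172 for S100a4. It stayed below 0 for Anxa2, at -1.01 with the interquartile range and -0.0333 without WT replicate 3. The replicate block changed no other call. With 3 arrays a genotype, Het minus WT differences of the size seen in the members, Vim included, could not be told from the spread between arrays. KO minus WT in Vim, which was picked for it, was not tested.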

Other observations

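Low values of the members gathered on KO replicate 3. It was the lowest of the 9 arrays for 5 of the 10 members (Vim, Anxa1, Anxa2, S100a10 and Ahnak), beside 12.2% of all genes tested. It was the lowest KO array for 8 of the 10, beside 36.1% of all genes. Vim, picked for its low KO values, is in both counts, and Anxa2 and S100a10 were high and low on the same arrays. With array weights, KO replicate 3 had the lowest weight of the 9, 0.57. KO replicates 1 and 2 had 1.51 and 1.87, and WT replicate 1 had 0.61. WT replicate 1 was the lowest array for 3 members (S100a11, Lgals1 and Lgals3), beside 16.9% of all genes. The other 9 members, each centred on its own mean, averaged 0.04, -0.02 and -0.39 on KO replicates 1, 2 and 3, 0.10, 0.09 and 0.24 in Het cells and -0.22, 0.06 and 0.10 in WT cells. Without KO replicate 3 the KO minus WT difference of Vim was -1.04.

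The genes most like the mean of the 10 members over 9 arrays were not those most like Vim. They were Atg101 (r = 0.923), a component of the autophagy initiation complex, Galnt6 (0.922), an enzyme of O-glycosylation, Nkap (0.919), the transcription factor Mef2d (0.918), Tvp23b (0.916) and Ndrg1 (0.911). Ndrg1 averaged 6.65 in KO, 8.23 in Het and 7.89 in WT cells, from 4.47 to 9.08 over the arrays. Zfp105 (-0.953), Afmid (-0.951) and Rgl3 (-0.945) ran the other way.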
